A study of Mus musculus with 412 samples.

Results

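Adrenergic receptors are the proteins through which noradrenaline and adrenaline act on cells, and they fall into 3 families that couple to different G proteins. Receptors of the alpha-2 family couple to Gi and Go, which inhibit adenylyl cyclase, open potassium channels and reduce calcium entry at nerve terminals, and alpha-2 agonists reduce transmitter release from primary afferents. Receptors of the alpha-1 family couple to Gq and phospholipase C, and beta receptors couple to Gs and raise cyclic AMP. In the colon, noradrenaline is released mainly by sympathetic nerves, which run beside the endings of sensory neurons.

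The receptor genes described here were the alpha-2 genes Adra2a, Adra2b and Adra2c, the alpha-1 genes Adra1a, Adra1b and Adra1d, and the beta-1 gene Adrb1. These 7 genes were chosen by name, and all 7 were found among the 45513 genes of the deposited table. The table held 325 single neurons of C57BL/6J mice, labelled by Fast Blue, a dye injected into the wall of the colon and carried back along the axon to the cell body. Of these, 167 came from thoracolumbar (TL, T10-L1) and 158 from lumbosacral (LS, L5-S2) dorsal root ganglia, out of 203 TL and 196 LS neurons in the labels. All were picked by hand from dissociated ganglia of healthy mice 3 to 10 days after tracing, TL and LS from separate primary cultures, and none was treated. The 13 controls of bath solution and 74 further neurons were not analysed here.

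The labels tie no neuron to a mouse, so each segment counted as 1 sample here. Neurons of 1 segment are not replicates of it, its culture and its position cannot be told apart, a difference between segments has no replicate check, and no p-value is given. Intervals are exact (Clopper-Pearson) 95% intervals that cover counting error only. Where a count was 0, the share it allows is given instead as 3 divided by the number of neurons. That share can lie below the exact upper limit, as at 4.48% against 5.36% for 67 neurons. Levels are the deposited values taken off the log scale and rescaled so that the genes of each neuron sum to 1000000. They are per length of the gene, so that genes can be compared, and are given as TPM. A receptor gene was counted in a neuron at 10 TPM or more. The neurons had a median of 2867071 reads on genes, with a range from 416048 to 12059074, and lay in 6 library plates. Plates 2 to 6 held both segments and plate 1 held 5 TL neurons only, so segments were also compared within plates.

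The cells carried the markers of sensory neurons. Of that list, Tubb3, Uchl1, Snap25 and Prph were at 10 TPM or more in all 325 neurons. Pou4f1 reached that level in 320, Isl1 and Calca each in 315, Scn9a in 296, Scn10a in 288 and Rbfox3 in 240. Of the markers of sympathetic neurons, which make noradrenaline themselves, Hand2 was at 0 in all neurons, while Dbh, Slc6a2 and Gata3 reached 10 TPM in none and Npy in 2. Th, another gene of that list, is also made by some sensory neurons and was at 10 TPM or more in 238. RNA of satellite glia, the cells that wrap sensory neurons, was present to a varying degree. The summed level of 10 satellite glia markers had a median of 2012 TPM (range 5.61 to 99396) in TL and 216 TPM (6.74 to 59719) in LS neurons.

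Of the 7 receptors, Adra2a, the alpha-2A receptor, had the highest level, and each of the 119 neurons in which it reached 10 TPM also had Gfra3. Adra2c, the alpha-2C receptor, was low but broad, and the other 5 were found in few neurons. The mean level over all 325 neurons was 14.8 ± 24.5 TPM for Adra2a and 2.85 ± 4.11 TPM for Adra2c (SD over neurons). The means of Adra1b (0.132), Adra1d (0.120), Adra2b (0.0990), Adra1a (0.0675) and Adrb1 (0.0243 TPM) were below the spread between neurons of each of these genes, and so were the differences between neighbours in this order. The highest level in any neuron was 131 TPM for Adra2a, 26.4 for Adra2c, 14.7 for Adra1d, 9.96 for Adra2b, 6.73 for Adra1a, 4.44 for Adra1b and 2.01 for Adrb1.

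**Figure D1:**
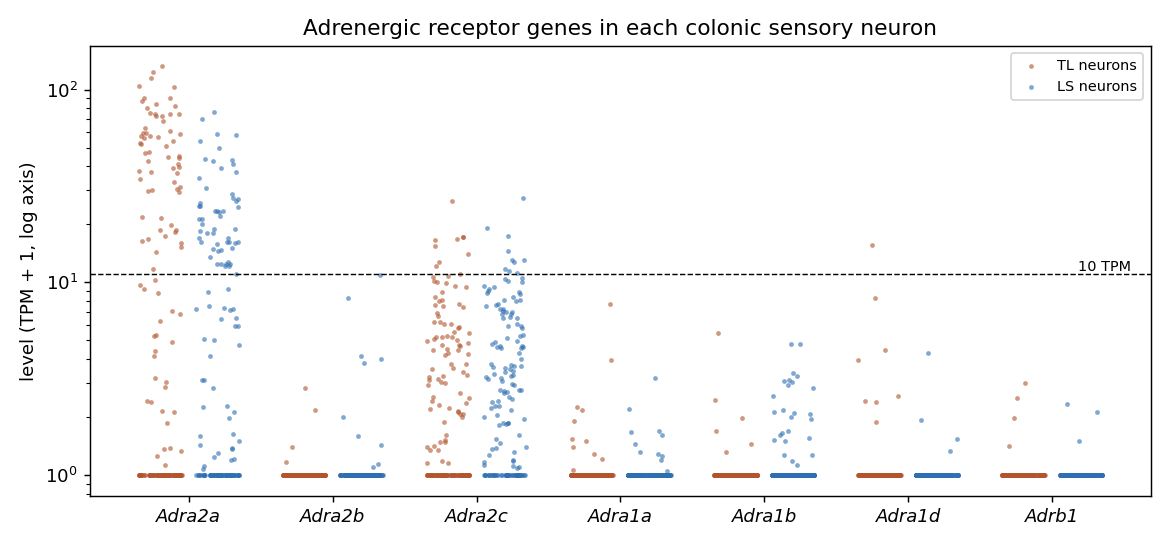
Level of each receptor gene in every neuron (vertical axis, TPM + 1, log scale), with TL neurons in brown and LS neurons in blue. Adra2a reached 131 TPM and was at 10 or more in 119 neurons, Adra2c stayed at or below 26.4, and of the other 5 genes only Adra1d passed the dashed line at 10, in 1 TL neuron.

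Most neurons had at most 1 of these receptors at 10 TPM or more. None of the 7 reached that level in 195 neurons, 1 did in 120 and 2 did in 10 neurons. The pair was Adra2a with Adra2c in all 10, of which 4 were TL and 6 LS neurons. The shares of both genes, multiplied within each segment, gave 7.32 neurons. At any level above 0, 56 neurons had none of the 7 genes, 104 had 1, 140 had 2, 18 had 3 and 7 had 4.

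At 10 TPM, Adra2a was found in similar shares of TL and LS neurons, with intervals that overlap, but the neurons that had it carried more of it in TL. It was at 10 TPM or more in 63 of 167 TL neurons (37.7%, interval 30.4 to 45.5) and in 56 of 158 LS neurons (35.4%, 28.0 to 43.4). Among the 63 TL neurons the median was 46.7 TPM, with a lowest value of 10.7 and a highest of 131. Among the 56 LS neurons the median was 20.4 TPM, with a lowest value of 10.1 and a highest of 75.4. The ranges overlapped, and the upper quartile of the LS neurons (28.4) lay just under the lower quartile of the TL neurons (29.3). After the reads of each neuron had been thinned to 500000, which left out 4 neurons, at least 5 reads of Adra2a were found in 69 of 166 TL neurons (41.6%) and 55 of 155 LS neurons (35.5%), and a second random draw gave 40.4% and 38.1%. A threshold of 5 TPM gave 41.9% of TL and 41.1% of LS neurons, but one of 20 TPM gave 31.1% and 18.4%.

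The mean level of Adra2a over all neurons of a segment was 19.9 TPM in TL and 9.53 in LS, a log2 ratio of LS over TL of -1.06. Of the 13440 genes at 10 TPM or more in at least 10 neurons, 5.62% were at least 2-fold lower in LS than in TL, 5.04% at least 2-fold higher and 10.7% either, and 3.27% were lower overall and in each of plates 2 to 6. The size of the ratio varied between plates. The mean was 22.3 TPM in TL and 3.58 in LS neurons of plate 2, 11.4 and 9.42 in plate 3, 21.7 and 8.18 in plate 4, and 31.5 and 9.67 in plate 6. In plate 5 the order was turned, with 12.2 TPM in TL and 14.2 in LS neurons. The ratio fell short of 2-fold without plate 2 (log2 ratio -0.89), without plate 4 (-0.96), without plate 6 (-0.79), with the deposited values not rescaled (-0.68) and as a difference of mean log2 values (-0.39 with a pseudocount of 1 TPM and -0.34 with 0.1 TPM). Satellite glia markers also differed between the segments, as given above, and their part in this ratio was not tested; without the 33 neurons highest in the satellite glia score it was -1.16.

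The frequency of Adra2a within plates did not follow the segment either. It was at 10 TPM or more in 11 of 27 TL and 3 of 21 LS neurons of plate 2, in 8 of 22 and 9 of 25 in plate 3, in 17 of 37 and 12 of 37 in plate 4, in 9 of 38 and 16 of 37 in plate 5, and in 18 of 38 and 16 of 38 in plate 6. In plates 2 and 5 the shares thus lay apart in opposite directions.

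The neurons were next divided by Gfra3, the co-receptor through which artemin signals via Ret in peptidergic nociceptors, at 10 TPM or more. This held for 183 neurons, 100 TL and 83 LS. Values near the cut were sparse: the highest level below it was 9.63 and the lowest above it 11 TPM. For the other genes used in this way, the neighbours of the cut were 7.57 and 10.5 for Trpa1, the channel that detects irritant chemicals, and 9.99 and 10.9 for Piezo2, the mechanically gated channel of touch and stretch receptors. Piezo2 had more values near the cut, with 17 neurons from 5 to under 10 TPM and 10 from 10 to under 20. The counts were 3 and 3 for Gfra3 and 4 and 12 for Trpa1.

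All 119 neurons with Adra2a were neurons with Gfra3. Among the 183 Gfra3 neurons, 65.0% (interval 57.6 to 71.9) had Adra2a, 63 of 100 in TL (63.0%, 52.8 to 72.4) and 56 of 83 in LS (67.5%, 56.3 to 77.4). Without Gfra3, Adra2a was at 10 TPM or more in 0 of 67 TL neurons, which allows a share of up to 4.48%, and in 0 of 75 LS neurons, which allows up to 4.00%. The highest Adra2a level in any of these 142 neurons was 6.24 TPM, and 19 of them were above 0.

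The mean level of Adra2a was 26.3 TPM with Gfra3 and 0.126 without, a log2 ratio of 7.71. That was the third highest ratio of 13440 genes, Gfra3 included, of which 6.52% were at least 2-fold higher with Gfra3, 6.50% at least 2-fold lower and 13.0% either. All of plates 2 to 6 gave this direction, as they did for 4.69% of genes 2-fold higher, with log2 ratios from 6.09 in plate 3 to 9.90 in plate 6. It was also the same within each segment, at 33.2 against 0.0420 TPM in TL (log2 ratio 9.62) and 18.0 against 0.20 TPM in LS (6.49).

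Neurons with and without Gfra3 were alike in median depth. Neurons with Gfra3 had a median of 2838771 reads and 13658 genes above 0, and neurons without it 2912051 reads and 13685 genes. After thinning, at least 5 reads of Adra2a were found in 123 of 179 neurons with Gfra3 and in 1 of 142 without. The summed satellite glia markers had a median of 1022 TPM with Gfra3 and 920 without, but 2344 and 1204 in TL and 160 and 379 in LS neurons.

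Other marker lists moved with Gfra3. The 6 fibroblast markers had a median sum of 54.7 TPM with Gfra3 and 1.96 without, and the 8 macrophage markers 56.6 and 16.0 TPM. In each of these lists 1 gene was common: Dcn reached 10 TPM in 141 neurons and the other fibroblast markers in at most 17, while C1qb did so in 196 and the other macrophage markers in at most 36. The part of such RNA in the Adra2a values was not tested.

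The share of neurons with Adra2a also followed the level of Gfra3. Of 15 neurons with Gfra3 from 10 to under 100 TPM, 0 had Adra2a, which allows a share of up to 20%. With Gfra3 from 100 to under 1000 TPM, 19 of 49 neurons had Adra2a (38.8%, interval 25.2 to 53.8). With Gfra3 at 1000 TPM or more, 100 of 119 had it (84.0%, 76.2 to 90.1), 50 of 55 in TL and 50 of 64 in LS. In these strongly positive neurons the mean Adra2a level was 52.7 TPM in TL and 20.6 in LS. The lowest Gfra3 level in any neuron with Adra2a was 245 TPM.

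**Figure D2:**
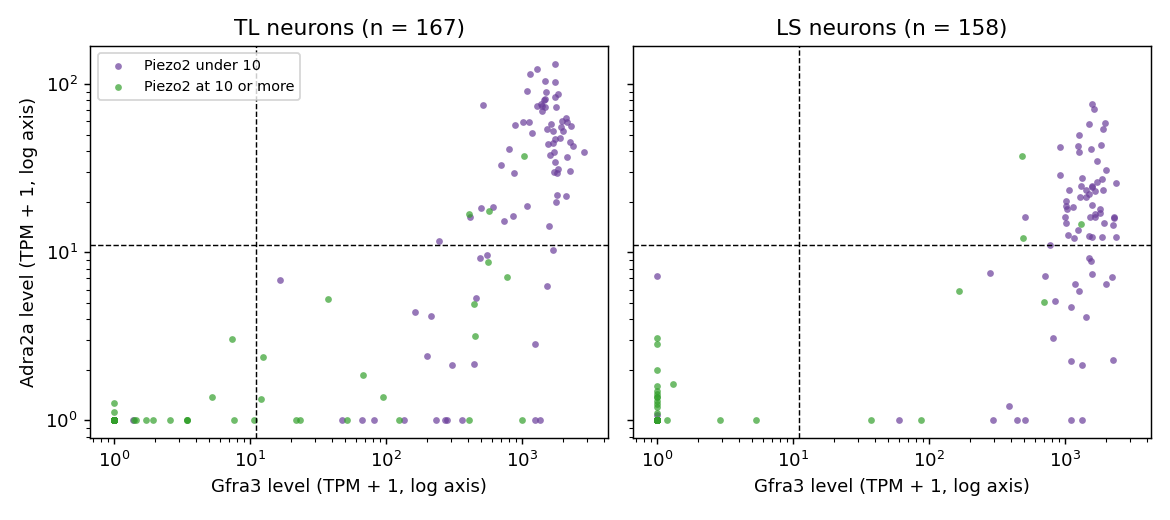
Adra2a (vertical axis) against Gfra3 (horizontal axis) in each TL neuron (left) and LS neuron (right), both as TPM + 1 on log scales, with dashed lines at 10. Green points are neurons with Piezo2 at 10 or more and purple points those under 10, and no point lies in the upper left field, where Adra2a would be at 10 or more without Gfra3.

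The Gfra3 neurons under 10 TPM for Adra2a were 40 neurons above 0 and 24 at 0. In the 24 neurons at 0 the median Gfra3 level was 250 TPM, against 630 in the 40 and 1531 in the 119 neurons with Adra2a. The 24 neurons also had fewer genes above 0, with a median of 9138 against 13222 and 13970, in both segments (9547 in 16 TL and 7960 in 8 LS neurons). Their reads were fewer in LS (1638491 against 3207976 with Adra2a) but not in TL (2786059 against 2722782). The part of the low number of genes in the absence of Adra2a was not tested.

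Adra2a neurons mostly had Trpa1 and lacked Piezo2. Trpa1 was at 10 TPM or more in 104 of the 119 (87.4%, interval 80.1 to 92.8) and in 66 of the other 206 neurons (32.0%, 25.7 to 38.9). Piezo2 was at 10 TPM or more in 6 of the 119 (5.04%, 1.87 to 10.7) and in 139 of the other 206 neurons (67.5%, 60.6 to 73.8). Only 64 of those 206 had Gfra3, and the contrast was smaller against these. Of the 40 Gfra3 neurons with Adra2a above 0 and under 10 TPM, 30 had Trpa1 and 11 Piezo2. Of the 24 with Adra2a at 0, 13 had Trpa1 and 8 Piezo2.

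The relation to Trpa1 was not the same in both segments. In TL neurons Adra2a was at 10 TPM or more in 63 of 110 with Trpa1 and in 0 of 57 without, with means of 30.0 and 0.290 TPM. In LS neurons it was in 41 of 60 with Trpa1 and in 15 of 98 without, with means of 20.5 and 2.81 TPM. The log2 ratio was thus 6.69 in TL and 2.87 in LS neurons, and the difference between the segments was not tested. TL neurons without Trpa1 had a median of 11457 genes above 0, against 13655 with it, while LS neurons had 13901 and 14047, and the part of this in the segments' values was not tested. Over all neurons the ratio was 3.82 (26.7 against 1.88 TPM), the 31st highest of 13440 genes, of which 5.33% were at least 2-fold higher, 6.26% at least 2-fold lower and 11.6% either. It kept this direction within all of plates 2 to 6, as 3.94% of genes did at 2-fold.

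Neurons with Piezo2 had little Adra2a in either segment. It was at 10 TPM or more in 3 of 73 TL neurons with Piezo2 and 60 of 94 without, and in 3 of 72 LS neurons with Piezo2 and 53 of 86 without. The mean was 1.22 TPM with Piezo2 and 25.8 without, a log2 ratio of -4.40. Only 8 of 13440 genes had a lower ratio, and 5.43% were at least 2-fold lower with Piezo2, 7.05% at least 2-fold higher and 12.5% either. The log2 ratio lay between -7.00 in plate 5 and -3.49 in plate 3, and 3.77% of genes were likewise lower overall and in all of these plates.

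Taking the 3 genes at once separated the neurons further. In neurons with Trpa1 and Gfra3 but not Piezo2, Adra2a was at 10 TPM or more in 60 of 79 TL (75.9%, interval 65.0 to 84.9) and 39 of 54 LS neurons (72.2%, 58.4 to 83.5). Neurons with Gfra3 but neither Trpa1 nor Piezo2 numbered 22 in LS and 3 in TL, and Adra2a was in 14 of the 22 (63.6%, 40.7 to 82.8) and 0 of the 3. These 14 accounted for nearly all of the 15 LS neurons with Adra2a but without Trpa1. Among neurons with all 3 genes, Adra2a was in 3 of 11 TL and 2 of 3 LS neurons. Among neurons with Piezo2 alone it was in 0 of 35 TL and 0 of 62 LS neurons, which allows shares of up to 8.57% and 4.84%.

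**Figure D3:**
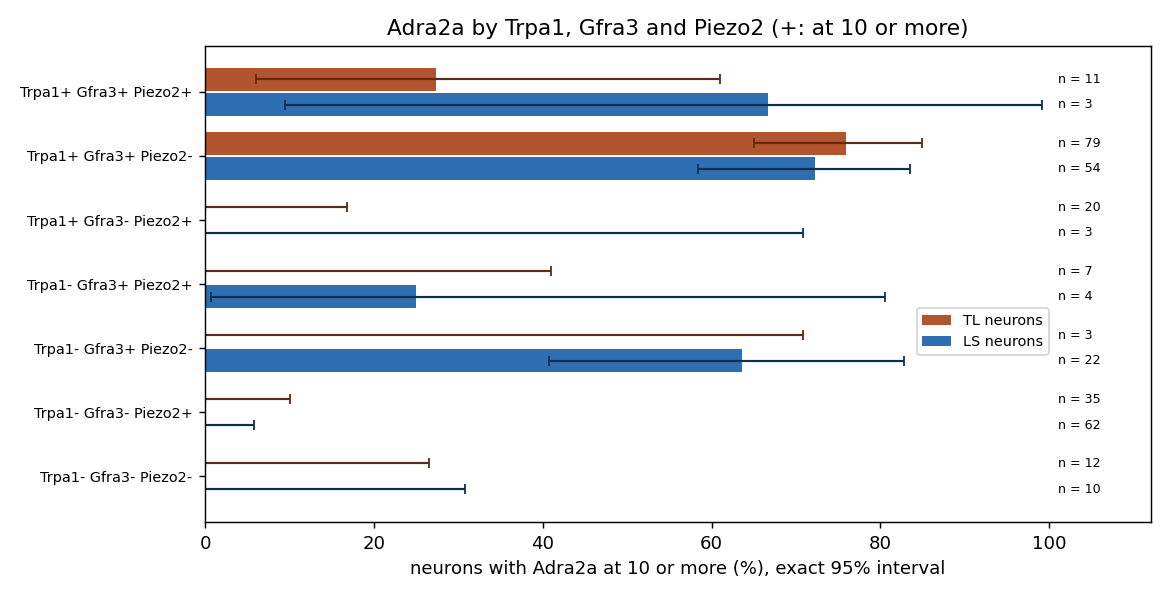
Percentage of neurons with Adra2a at 10 TPM or more (horizontal axis) in each combination of Trpa1, Gfra3 and Piezo2 (+ for 10 or more, - for under 10), for TL (brown) and LS (blue) neurons, with exact 95% intervals and the number of neurons at the right. The combination with Trpa1 and Gfra3 only reached 75.9% in TL and 72.2% in LS, and every combination without Gfra3 stood at 0.

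Within the combination of Trpa1 and Gfra3 without Piezo2, the mean Adra2a level was 40.7 TPM in TL and 21.7 in LS neurons. The means were 51.1 and 8.27 TPM in plate 2 (11 TL and 6 LS neurons), 30.7 and 24.8 in plate 3, 34.2 and 17.6 in plate 4, and 56.8 and 22.0 in plate 6. In plate 5 they were 26.8 and 28.2 TPM, the reverse order. In the 22 LS neurons with Gfra3 alone the mean was 11.2 TPM and the highest level 27.9.

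**Figure D4:**
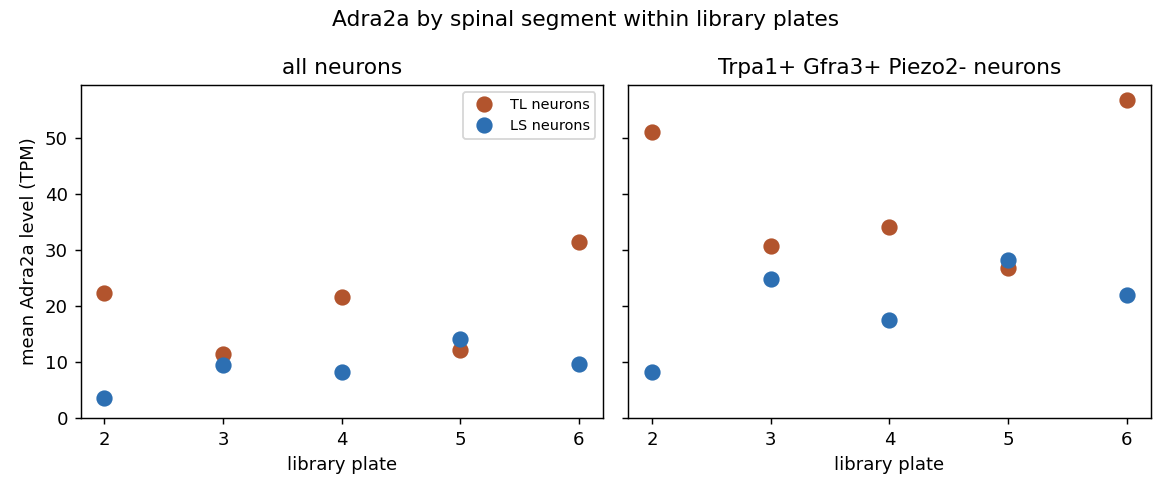
Mean Adra2a level (vertical axis, TPM) of TL (brown) and LS (blue) neurons in library plates 2 to 6, over all neurons (left) and over neurons with Trpa1 and Gfra3 but not Piezo2 (right). The TL mean was above the LS mean in plates 2, 3, 4 and 6 and below it in plate 5, in both panels.

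The Adra2a neurons carried the genes of peptidergic nociceptors. Calca (the precursor of CGRP), Tac1 (the precursor of substance P) and Trpv1 (the heat and capsaicin channel) were at 10 TPM or more in all 119 of them. Among the other 206 neurons Calca was in 196, Tac1 in 137 and Trpv1 in 115. Their median Trpv1 level was 1128 TPM with Adra2a and 22.2 in the other neurons. Nefh, the heavy neurofilament of large myelinated fibres, went the other way, with medians of 29.9 and 144 TPM. Only 64 of the other 206 neurons had Gfra3, and Gfra3 neurons without Adra2a were not compared separately for these genes.

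Across all 325 neurons, genes whose levels followed Adra2a most closely, by Spearman's rank correlation over 10503 genes, included Gfra3 (0.83), the Wnt antagonist Frzb (0.80), the retinoid receptor Rxrg (0.78) and the matrix proteoglycan Vcan (0.78). These correlations describe neurons that share plates, cultures and mice, and they carry no p-value. Frzb was at 10 TPM or more in 118 of the 119 Adra2a neurons and 77 of the other 206. Vcan was lower, at 10 TPM or more in 43 of the 119 and 4 of the other 206. Within TL and within LS neurons, these 4 correlations lay between 0.74 and 0.85. The most negative correlation, -0.70, was that of Piezo2. Adra2a was close to unrelated to the reads of a neuron (0.04) and weakly related to the number of genes above 0 (0.19).

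Adra2c was spread widely at a low level, and was above 0 in some neurons of all combinations of Trpa1, Gfra3 and Piezo2 except the 12 TL neurons that lacked all of these genes. It was above 0 in 201 of 325 neurons (61.8%, interval 56.3 to 67.2), and Adra2a in 178 (54.8%, 49.2 to 60.3). Both shares come from the same neurons, so these intervals do not measure the difference between them, which was not tested. After thinning the order was the other way round, with at least 1 read of Adra2c in 152 and of Adra2a in 158 of 321 neurons. Adra2c was at 10 TPM or more in only 20 neurons, 10 of 167 TL (5.99%) and 10 of 158 LS neurons (6.33%). In these 10 TL neurons its level ran from 10.1 to 25.4 TPM with a median of 15.0, and in the 10 LS neurons from 10.2 to 26.4 with a median of 12. Another 50 neurons lay between 5 and 10 TPM, so a count at a fixed level depends strongly on where it is set for this gene.

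No comparison changed Adra2c 2-fold. Its mean was 2.61 TPM in TL and 3.11 in LS neurons (log2 ratio 0.25), with LS above TL in 4 of the 5 plates. It was 2.92 with and 2.78 without Trpa1 (0.07), 3.16 with and 2.46 without Gfra3 (0.36), and 2.66 with and 3.01 without Piezo2 (-0.18). Piezo2 neurons without Gfra3, where Adra2a was at 10 or more in none, had Adra2c above 0 in 76 of 120, and all other neurons in 125 of 205. The share of neurons above 0 was higher in LS (111 of 158, 70.3%) than in TL (90 of 167, 53.9%), and after thinning it was 51.6% and 43.4%. Adra2c followed the number of genes above 0 in TL neurons (Spearman 0.51, n = 167) more than in LS neurons (0.15, n = 158). Its correlation with Adra2a was 0.25 over all neurons.

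Adra2b, the alpha-2B receptor, was above 0 in 14 neurons, 4 TL and 10 LS, with 205 reads in all. The highest levels were 9.96 and 7.33 TPM, in 2 LS neurons of plates 5 and 2, both with Gfra3 and without Trpa1. Of the 14 neurons, 10 had Piezo2 and lacked Gfra3. The gene was above 0 in 6.33% of LS neurons (interval 3.08 to 11.3) and 2.4% of TL neurons (0.656 to 6.02), and these intervals overlap.

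Of the alpha-1 genes, Adra1b and Adra1d lay almost entirely in neurons with Piezo2 and without Gfra3, at levels near the limit of detection. Neurons with Piezo2 but without Gfra3 numbered 120, a combination chosen after the values had been seen. Adra1b was above 0 in 30 of these 120 (25.0%, interval 17.5 to 33.7) and in 2 of the other 205 neurons (0.976%, 0.118 to 3.48). Adra1d was above 0 in 12 of the 120 (interval 5.27 to 16.8%) and in 0 of the 205, which allows a share of up to 1.46%. Adra1a was also above 0 in 12 of the 120 and in 10 of the 205 (4.88%, 2.36 to 8.79), with intervals that overlap. In these 120 neurons Adra2a was above 0 in 17. Among all genes above 0 in at least 10 neurons, the share of neurons above 0 was at least 2-fold higher in the 120 for 9.89%, as it was for Adra1a, Adra1b, Adra1d and Adra2b, and at least 2-fold lower for 3.07%, as it was for Adra2a. A gene above 0 in most neurons of both groups cannot differ 2-fold in this way. These percentages are thus no matched background for the rarer receptors.

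The share of neurons above 0 was at least 2-fold higher with Piezo2 than without it for Adra1a, Adra1b, Adra1d and Adra2b, and at least 2-fold lower for Adra2a. For genes above 0 in at least 10 neurons, 9.99% had a share at least 2-fold higher with Piezo2 and 2.78% a share at least 2-fold lower. With Gfra3 the directions were the reverse for the same 5 genes, and 7.53% of genes had a share at least 2-fold lower and 4.37% one at least 2-fold higher. With Trpa1 the share was at least 2-fold lower for Adra1a, Adra1b and Adra2b and higher for Adra2a, against 5.86% and 5.29% of genes. The groups shared the same neurons, so these are not separate observations. The percentages of genes are again not matched for how widely a gene was found.

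Adra1b, a Gq-coupled receptor, was found mostly in LS neurons. It was above 0 in 26 of 158 LS neurons (16.5%, interval 11 to 23.2) and 6 of 167 TL neurons (3.59%, 1.33 to 7.66), with 202 and 34 reads. Of all genes above 0 in at least 10 neurons, 8.86% had a share at least 2-fold higher in LS than in TL and 3.37% one at least 2-fold lower, and Adra2b passed the same mark in LS. This background is likewise not matched for how widely a gene was found. The counts were 5 LS and 0 TL neurons in plate 2, 4 and 1 in plate 3, 3 and 1 in plate 4, 6 and 2 in plate 5, and 8 and 2 in plate 6, so LS led in each plate. Among neurons with Piezo2 alone, Adra1b was above 0 in 24 of 62 LS (38.7%, 26.6 to 51.9) and 6 of 35 TL neurons (17.1%, 6.56 to 33.6), with intervals that overlap. The highest level was 4.44 TPM, from 19 reads of a TL neuron of plate 6, and 19 of the 32 neurons had at least 5 reads. After thinning, 14 of 155 LS and 4 of 166 TL neurons kept at least 1 read.

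Adra1d was instead found more in TL neurons, 8 of 167 against 4 of 158 in LS, with intervals of 2.09 to 9.22% and 0.694 to 6.35% that overlap. It was above 0 in 6 of the 20 TL neurons with Trpa1 and Piezo2 but not Gfra3 (30.0%, interval 11.9 to 54.3) and in 2 of the 35 TL neurons with Piezo2 alone (5.71%, 0.70 to 19.2). Plate 6 supplied 4 of these 6 neurons, while plates 1 and 3 supplied 1 each. Plates 2 and 5 also held TL neurons with Trpa1 and Piezo2 but not Gfra3, and none of those had Adra1d. The 30.0% thus rests largely on plate 6. The only neuron with this gene at 10 TPM or more, at 14.7, was a TL neuron of plate 5 with 26 reads of Adra1d, Piezo2 at 10.9 TPM, and neither Trpa1 nor Gfra3. The antisense gene Gm14285 overlaps Adra1d on the other strand. Shared reads could thus be left uncounted, or some of the 84 reads of Adra1d could belong to either gene.

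**Figure D5:**
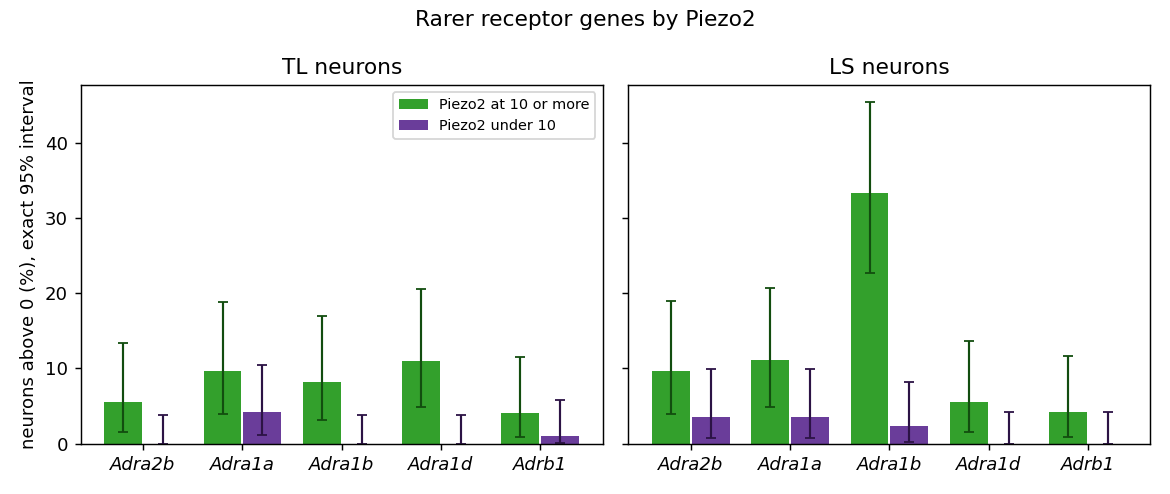
Percentage of neurons in which each rarer receptor gene was above 0 (vertical axis), for TL (left) and LS (right) neurons with Piezo2 at 10 TPM or more (green) and under 10 (purple), with exact 95% intervals. Adra1b in LS neurons with Piezo2 stood highest, at 33.3%, against 2.33% without Piezo2.

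Adra1a was above 0 in 11 TL and 11 LS neurons, with 321 reads in all. Its highest level, 6.73 TPM from 84 reads, was in a TL neuron of plate 3 with Gfra3 at 123 and Piezo2 at 73.1 TPM, and the next, 2.96, in a TL neuron of plate 1. Adrb1, the beta-1 receptor, was the rarest, above 0 in 4 TL and 3 LS neurons with 25 reads in all, and 6 of these 7 neurons had Piezo2. Neither gene reached 10 TPM in any of 325 neurons, which allows a share of up to 0.923%. Adrb3, another beta receptor, reached 13.1 TPM in 1 LS neuron and 10 or more in no other.

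Neurons with Piezo2 but without Gfra3 had a median of 14173 genes above 0 and 2956014 reads, against 13540 genes and 2789655 reads in the other 205. After thinning to 500000 reads, Adra1b kept at least 1 read in 18 of the 120 and 0 of 201 deep enough neurons, Adra1d in 6 and 0, and Adra1a in 8 and 4.

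In the GRCm38 assembly, the 3 alpha-2 genes are annotated without introns. Adra2a lies on the plus strand at chr19:54044151-54048982, Adra2b on the plus strand at chr2:127363208-127367221 and Adra2c on the plus strand at chr5:35278319-35281763. Adra1a lies on the plus strand at chr14:66635251-66771168, Adra1b on the minus strand at chr11:43774606-43901210 and Adra1d on the minus strand at chr2:131545850-131562283, each with introns. Adrb1 lies on the plus strand at chr19:56722199-56733113. Apart from Adra1d, none of them overlaps another annotated gene.

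The G proteins and effectors of these receptors were compared in the same way, from lists of 57 genes. The 5 alpha subunits of the Gi and Go class, through which alpha-2 receptors signal, were abundant in neurons with and without Gfra3. Gnao1 averaged 145 TPM with Gfra3 and 138 without, and Gnai2 122 and 86.4. None of the 5 differed 2-fold by segment, Trpa1, Gfra3 or Piezo2, and the median log2 ratio of the list with Gfra3 was 0.08, against 0.02 over all genes.

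Adenylyl cyclases, only some of which Gi inhibits, included genes that were higher in neurons with Gfra3, where Adra2a was found. Of 9 genes, 5 passed the filter, and 3 of those were at least 2-fold higher with Gfra3, against 6.52% of all genes: Adcy3 (20.1 against 8.21 TPM, log2 ratio 1.29), Adcy5 (13.3 against 4.44, 1.59) and Adcy7 (5.20 against 1.86 TPM, in 41 neurons at 10 or more). The list median was 1.29. With Trpa1, Adcy5 and Adcy7 were again higher and Adcy8 lower (-1.08), and with Piezo2 only Adcy8 was higher (1.27). By segment only Adcy7 differed 2-fold, lower in LS (2.25 against 5.15 TPM, -1.19). Over all genes, 5.33% were at least 2-fold higher and 6.26% lower with Trpa1, 7.05% higher with Piezo2 and 5.62% lower in LS.

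Of the calcium channels that alpha-2 receptors inhibit at terminals, Cacna1b (Cav2.2) averaged 35.4 TPM with Gfra3 and 18.6 without (log2 ratio 0.93), and Cacna1a 4.29 and 2.87 (0.58). Both fell short of 2-fold in each comparison. Of the 4 GIRK potassium channel genes only Kcnj3 passed the filter. It was higher with Piezo2, at 6.13 against 2.35 TPM (1.38), as 7.05% of all genes were at 2-fold. It stood at 3.00 with and 5.38 without Gfra3 (-0.84).

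Among receptor kinases and arrestins, 5 of 6 genes passed, and Adrbk2, a kinase that phosphorylates occupied beta receptors and other receptors, was higher with Trpa1 (5.15 against 0.956 TPM, log2 ratio 2.43) and Gfra3 (1.58) and lower in LS (-1.14). The other 4 differed by under 2-fold in every comparison. The shares over all genes were 5.33% higher with Trpa1, 6.52% higher with Gfra3 and 5.62% lower in LS. Adrbk2 reached 10 TPM in only 22 neurons, 12.9% of those with Trpa1 and 0% of those without. It thus passed the filter through Trpa1 neurons alone, and the share with Trpa1 is no matched background for it. Of the 12 RGS genes, whose proteins end G protein signals, Rgs14, Rgs16 and Rgs17 were at least 2-fold higher with Gfra3, at log2 ratios of 1.24, 1.03 and 1.44, and none was lower, against 6.52% and 6.50% of all genes. With Trpa1, 4 of the 12 were higher (Rgs8, Rgs10, Rgs14 and Rgs17) and none lower, against 5.33% and 6.26% of all genes. With Piezo2, Rgs7 (1.15) and Rgs20 (1.27) were higher and Rgs16 (-1.19) and Rgs17 (-1.07) lower, against 7.05% and 5.43%. Rgs9 was the only one to differ by segment, at 8.57 TPM in LS and 3.13 in TL (1.45), where 10.7% of all genes differed 2-fold.

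Of the Gq class, through which alpha-1 receptors signal, Gna14 was at least 2-fold higher with Piezo2 (30.6 against 9.82 TPM, log2 ratio 1.64), where Adra1b and Adra1d were found. It was also higher with Trpa1 (29.8 against 7.36 TPM, 2.01), and lower with Gfra3 (9.98 against 30.8, -1.63) and in LS than in TL (6.33 against 31.1, -2.30). Only 54 neurons had Gna14 at 10 TPM or more, and its median was 0.596 TPM with Gfra3 and 0 without. Gnaq and Gna11 differed by under 2-fold throughout and were at 10 TPM or more in 321 and 318 neurons. Phospholipase C beta genes gave 3 of 4 past the filter, of which only Plcb3 differed 2-fold, with Trpa1 (211 against 93.2 TPM, 1.18). Of the Gs class, Gnal averaged 146 TPM in TL and 129 in LS and was higher with Trpa1 (1.02). For comparison, 7.05% of all genes were at least 2-fold higher with Piezo2, 5.33% higher with Trpa1, 6.50% lower with Gfra3 and 5.62% lower in LS. The level of Gnas, 5.95 TPM, is uncertain, since 5 annotated genes overlap it and shared reads could be left uncounted.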

How the data were processed

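Single neurons were sequenced by Smart-seq2, which copies full-length polyadenylated RNA and carries no molecular identifiers, with 75 bp paired ends. Per the labels, the authors used bcl2fastq 2.15.0.4, STAR 2.4.1, GRCm38.p3 and featureCounts 1.4.4. The deposited values are log2(x + 1) of scaled reads per gene length, which the authors had filtered and normalised for 325 neurons. Here x was rescaled to 1000000 per neuron. Whole reads were recovered from x with GENCODE M21 exonic lengths, which gave whole reads for 65.0% of values above 0 at a relative tolerance of 1e-09, and with lengths found from the values for 8712 genes, after which all were whole. A level scales with the neuron's other RNA, satellite glia RNA included. Gene names matched 44585 of 45513 identifiers. Ratios of means were computed for genes at 10 or more in at least 10 neurons, called at 2-fold, and tested on simulated data. Python 3.11.15, numpy 2.4.6, pandas 2.3.3 and scipy 1.17.1 were used. No doublet caller was run, since neurons were picked singly by hand.

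The 7 receptor genes and the lists were chosen with earlier results of these data known. Genes named are the 7 receptors, Trpa1, Gfra3, Piezo2, the listed pathway and marker genes, and the 5 genes most like any receptor found at 10 or more in at least 30 neurons, which left Adra2a alone; some genes under this rule are not reported here. Nociceptor genes (Calca, Tac1, Trpv1, Nefh) were added later. Alternatives were other scales, averages, thresholds and filters, thinned reads, and leaving out plates or neurons.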

Additional observations from a re-analysis of the deposited data

How the results depend on the processing

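The 8 log2 ratios of Adra2a and Adra2c were recomputed under 108 alternatives, of which 5 moved a ratio by more than its SD over plates 2 to 6 and 0 reversed one that had passed 2-fold. All 42 recomputed ratios of Adra2a by Trpa1, Gfra3 and Piezo2 stayed past 2-fold in the same direction, between 2.98 and 4.84, 3.63 and 8.60, and -5.14 and -3.05. As a difference of mean log2 values, that by Trpa1 became 2.98 with a pseudocount of 1 and 4.84 with 0.1, and that by Gfra3 3.63 and 6.13. The ratio of Adra2a by segment ranged from -1.45 (without plate 5) to -0.34 and stayed past 2-fold in 6 of 12. Adra2c stayed under 2-fold throughout; its ratio by Piezo2 was -0.60 in thinned reads, and that by Trpa1 took either sign (-0.06 to 0.36). The cause of these moves was not tested. Adra2a and Adra2c occurred together in 39 neurons at a threshold of 5 TPM and 0 at 20 TPM, against 10. Of the 5 genes most like Adra2a, 4 were kept by Pearson correlation of log2 values, 3 in LS neurons alone and 1 in TL neurons alone. Genes called at 2-fold numbered 1433 by segment, 1558 by Trpa1, 1749 by Gfra3 and 1677 by Piezo2. In the same order they numbered 5633, 5339, 5619 and 5343 among genes above 0 in at least 10 neurons, 687, 829, 948 and 937 among genes at 10 or more in at least 30 neurons, 2780, 3024, 3313 and 3148 at 1.5-fold, and 362, 498, 612 and 551 at 4-fold. No paired analysis was possible because the labels pair no TL neuron with an LS neuron and no test was made; ratios within plates are given in the text. Receptors with few reads could be missed in neurons of low depth, and a level of 0 is not absence.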

Other observations

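The genes of noradrenaline synthesis, transport and breakdown were also measured in these neurons. Th, the first enzyme of synthesis, was at 10 TPM or more in 112 of the 119 Adra2a neurons (94.1%). It was so in 126 of the other 206 neurons (61.2%), a group in which 64 had Gfra3. In TL, Th was so in 61 of 63 neurons with Adra2a (96.8%) and 41 of 104 others (39.4%). In LS the counts were 51 of 56 (91.1%, interval 80.4 to 97.0) and 85 of 102 (83.3%, 74.7 to 90.0), with intervals that overlap. The mean of Th was higher in LS than in TL neurons (660 against 179 TPM, log2 ratio 1.88) and higher with Gfra3 (577 against 201, 1.52). Dbh, which makes noradrenaline from dopamine, Pnmt and the noradrenaline transporter Slc6a2 reached 10 TPM in 0 of 325 neurons, and Ddc, the enzyme after Th, in 3. Of the 9 genes of this list, 5 passed the filter, and with Gfra3 1 of them was at least 2-fold higher and 2 were lower, against 6.52% and 6.50% of all genes. The lower ones were the monoamine oxidases Maob (6.07 against 90.0 TPM, -3.89) and Maoa (20.1 against 40.8, -1.02). The mean of Maob was also higher in LS than in TL neurons (75.5 against 11.8 TPM, 2.68), as 5.04% of all genes were at 2-fold. A minority of neurons carried it: the median was 0 TPM in LS and 0.175 in TL, and 38.6% and 28.7% were at 10 TPM or more.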
